A study of Mus musculus with 6 samples.

Results

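Polycomb repressive complex 2 (PRC2) adds methyl groups to lysine 27 of histone H3, up to the trimethylated form H3K27me3, and the KDM6 demethylases remove it. The RNA levels of 10 genes of this system were followed in primary mouse mesangial cells, which hold the capillary loops of the kidney glomerulus together. They are the catalytic subunits Ezh1 and Ezh2, the core subunits Suz12, Eed and Rbbp7, the accessory subunits Jarid2, Mtf2 and Phf19, and the demethylases Kdm6a and Kdm6b. The genes were taken by symbol from a table of 19730 rows, where each was found in 1 row. The rule used the symbol alone and no level or change.

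The mark sits on the nucleosomes of silenced genes, and PRC2 is known for holding developmental regulators and the Cdkn2a locus silent. EZH2 is the main methyltransferase of dividing cells, whereas EZH1 is the related enzyme that is known to prevail in many resting tissues. A catalytic subunit needs SUZ12 and EED to be active, and the accessory subunits, which differ between forms of the complex, help to place it on chromatin.

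RNA-Seq was performed on 3 Control and 3 TGF-β1 libraries. All 6 came from cells of unstated genotype and strain, used at passages 3 to 6 and grown with 25.5 mM glucose and 20% serum, so the untreated cells were also in high glucose. TGF-β1 (transforming growth factor beta 1, the main fibrosis-promoting cytokine of the kidney) was given at 10 ng/ml for 72 h. Because the labels do not say whether the libraries of a group came from separate animals or cultures, p-values measure only the spread between these libraries, which may be technical. Values are FPKM (fragments per kilobase of transcript, scaled to the mapped fragments of the library) as deposited, a level per length that can be compared between genes. A log2 change is TGF-β1 minus Control in log2(FPKM + 1), and the added 1 shrinks the changes of genes with low FPKM.

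The treatment was visible in the known targets Ctgf, a matricellular protein, with a log2 change of 4.63, and Col1a1, a chain of type I collagen, with 2.04. Depth recovered from the steps of low values was 10.1 to 11.1 M (mega) fragments per library. Of 27 cell type marker rows, 12 were under 0.5 FPKM in all 6 libraries. Of the mesangial and pericyte markers, Acta2 rose (log2 change 1.96) and Pdgfrb was called lower (−0.34, adjusted p = 0.0396), but not with the replicate number as a block (0.0583). Ptn fell from a mean of 35.5 to 1.08 FPKM, and Cspg4 went from 0.0735 to 1.21 FPKM. Gata3 was not called (means of 1.76 and 1.03 FPKM), and Des was low in both groups (0.271 and 0.243 FPKM). Itga8 and Thy1 stayed under 0.5 FPKM in every library. Summed levels of the endothelial list were 0.361 to 0.468 FPKM in Control and 0.299 to 0.822 FPKM with TGF-β1. The macrophage list (8.19 to 9.58, then 2.26 to 3.24 FPKM), the tubule list (10.4 to 14.3, then 0.702 to 1.03 FPKM) and the podocyte list (19.7 to 24.9, then 12.6 to 13.7 FPKM) had lower sums after treatment. Most of the macrophage sum's difference was Csf1r (means of 6.27 and 0.411 FPKM), while Cd68 overlapped between groups and was not called, and the leukocyte-defining Ptprc was under 0.5 FPKM in all libraries. Most of the tubule sum's difference was Aqp1 (10.4 and 0.169 FPKM), while Slc12a1 went the other way (0.0615 and 0.377 FPKM). Whether these differences bear on the Polycomb genes was not tested, and in bulk RNA fewer cells of a type and less RNA per cell cannot be told apart.

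Ezh1 fell, the core subunits Eed, Rbbp7 and Suz12 rose by smaller amounts, Jarid2 fell slightly, and Ezh2, Mtf2, Kdm6a and Kdm6b did not pass the test. A gene was called changed at an adjusted p under 0.05 in limma, with Benjamini-Hochberg adjustment over the 11898 rows whose mean FPKM was at least 1. Of the 9 genes above that level, 5 were called, a share of 55.6%, beside 48.1% of all tested rows. The 3 that rose stand beside a background of 24.5% of rows called higher, and the 2 that fell beside 23.6% called lower. This split was not stable, with 1 higher and 3 lower when libraries were scaled to the sum of protein-coding rows or when a GC and length trend was removed, 1 higher and 5 lower with that trend removed and the replicate block, and 1 higher and 1 lower without TGF-β1 replicate 1 or TGF-β1 replicate 3. Ezh1 alone changed by at least 2-fold, which 13.9% of tested rows did, and 6 of the 9 had groups that did not overlap, against 59.4% of tested rows. The median log2 change of the 9 genes was −0.25, beside −0.02 over all tested rows. These shares were near the background and single out nothing about the set as a whole.

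Without the replicate 2 libraries, which deviated together from their groups, Ezh1 was the only one of these genes still called (1 of 9), beside 35.3% of all tested rows with these 2 libraries per group. The core subunits were not called there, at log2 changes of 0.50 for Eed, 0.29 for Rbbp7 and 0.30 for Suz12. With the replicate number as a block, 4 of 9 were called, beside 45.3% of tested rows. These were Ezh1, Eed, Rbbp7 and Kdm6b, so that Suz12 and Jarid2 were lost and Kdm6b was gained. How far the count depends on single libraries is given with each gene.

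**Figure D1:**
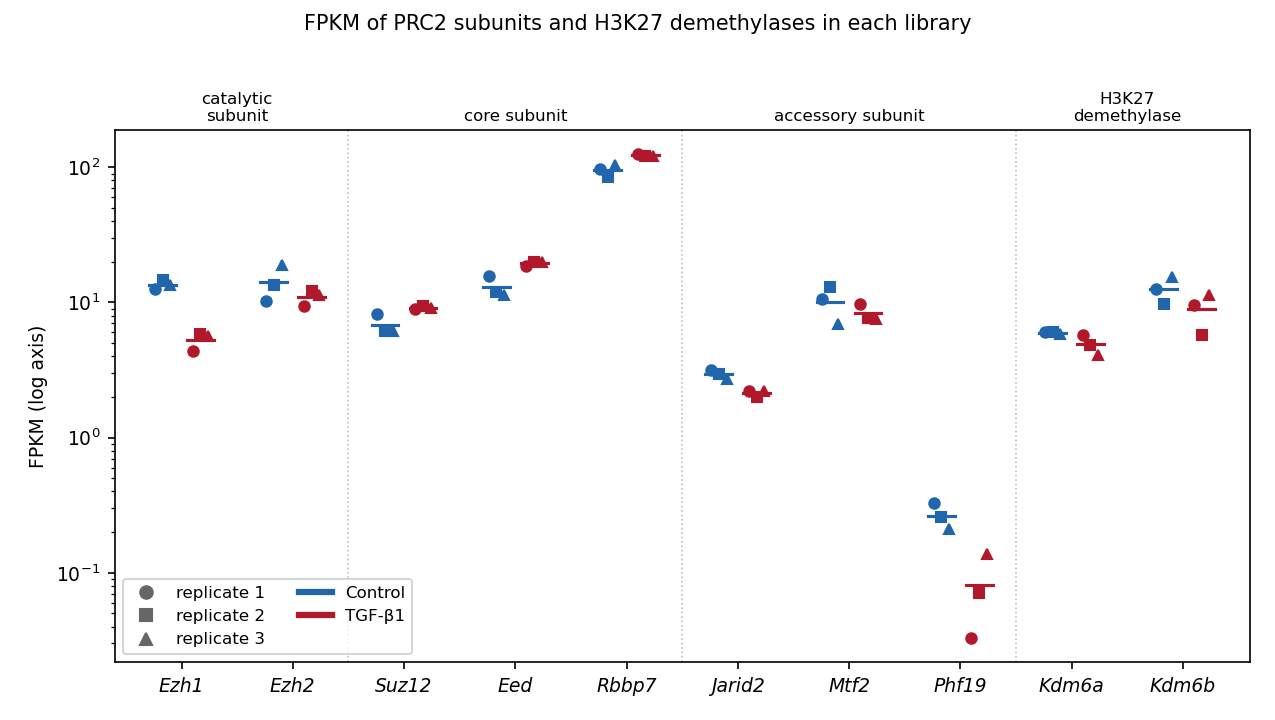
FPKM of each gene (vertical axis, logarithmic) in the Control libraries (blue) and the TGF-β1 libraries (red), by role in the complex. Symbols mark the replicate number and horizontal bars the group means. Rbbp7 lay far above the other genes, Phf19 far below them, and Ezh1 had the widest gap between groups among the 9 genes above 1 FPKM.

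Among the Control libraries Rbbp7 had the highest level, with a mean of 95.4 FPKM. Ezh2, Ezh1, Eed, Kdm6b and Mtf2 followed with means from 14.2 down to 10.1 FPKM, and their ranges over libraries overlapped. Suz12 at 6.83 FPKM and Kdm6a at 5.98 FPKM came next, separated by less than the spread of Suz12. Jarid2 at 2.94 FPKM and Phf19 at 0.265 FPKM were lowest. After TGF-β1 the order differed in that Eed stood alone in second place at 19.6 FPKM, while Ezh1 at 5.31 FPKM lay beside Kdm6a at 4.90 FPKM with overlapping ranges. The rows of Jarid2 and Mtf2 name a processed transcript rather than an mRNA, so their place in this order is uncertain.

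Ezh1 (ENSMUSG00000006920, mm9 chr11:101052429-101087777, minus strand) had the largest log2 change of the 9 genes above the level filter. Its FPKM was 12.6, 14.6 and 13.5 across the Control libraries, compared with 4.41, 5.89 and 5.65 across the TGF-β1 libraries. Every treated library was below every control library, and the gap between the groups was wider than either group. Mean FPKM went from 13.6 ± 0.982 (SD, n = 3) to 5.31 ± 0.797 (SD, n = 3), so that the treated level was 0.392 of the control level. The log2 change was −1.21 (SE 0.12, 95% interval −1.50 to −0.92, adjusted p = 0.000454). No annotated gene overlaps Ezh1. The call held without any one library, with log2 changes from −1.28 to −1.10 and adjusted p-values from 0.00171 to 0.00343, and with the replicate block. Its sign turned where libraries were scaled to the sum of all rows (log2 change 0.20), a scale on which the median of all tested rows was 1.42. Summed FPKM of the tested rows ran from 2.12e+06 to 3.00e+09 in Control and from 8.40e+05 to 2.64e+09 with TGF-β1. Sums of protein-coding rows stayed between −0.14 and 0.11 around their mean on the log2 scale. The sum of all rows is thus set by rows of extreme value and is not a usable scale.

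Ezh2 (ENSMUSG00000029687, mm9 chr6:47480273-47545340, minus strand) did not pass the test. The Control libraries held 10.3, 13.4 and 18.8 FPKM and the TGF-β1 libraries 9.47, 12.1 and 11.3 FPKM. The groups overlapped, with the widest spread in Control, where replicate 3 was highest. Ezh2 was lower after treatment in each of the 3 numbered pairs, but by very unequal amounts. Means were 14.2 ± 4.28 and 11.0 ± 1.36 FPKM (SD, n = 3 each), and the log2 change was −0.31 with a 95% interval from −0.83 to 0.20 (adjusted p = 0.268). An increase of more than 0.20 and a decrease of more than 0.83 on the log2 scale both lie outside that interval. With the replicate block and a GC and length trend removed together, it was called lower (log2 change −0.45, adjusted p = 0.0275), and in no other alternative setting. A noncoding RNA, Gm17629, overlaps it on the opposite strand.

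The balance between the catalytic subunits moved with Ezh1. The ratio of Ezh1 to Ezh2 FPKM was 1.22, 1.09 and 0.718 in the Control libraries but 0.465, 0.486 and 0.501 in the treated ones. All treated ratios were below all control ratios, and they lay closer together. Ezh1 made up 55.0%, 52.0% and 41.8% of the summed FPKM of both genes in Control, and 31.8%, 32.7% and 33.4% after treatment. The log2 ratio differed by −1.02 between groups (exact two-sided permutation test, p = 0.1, the smallest that 3 against 3 libraries can give, and 0.2 after adjustment over 2 ratios). Summed FPKM of both catalytic subunits was 22.9, 28.0 and 32.3 in the Control libraries but 13.9, 18.0 and 16.9 in the treated ones, again with no overlap.

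**Figure D2:**
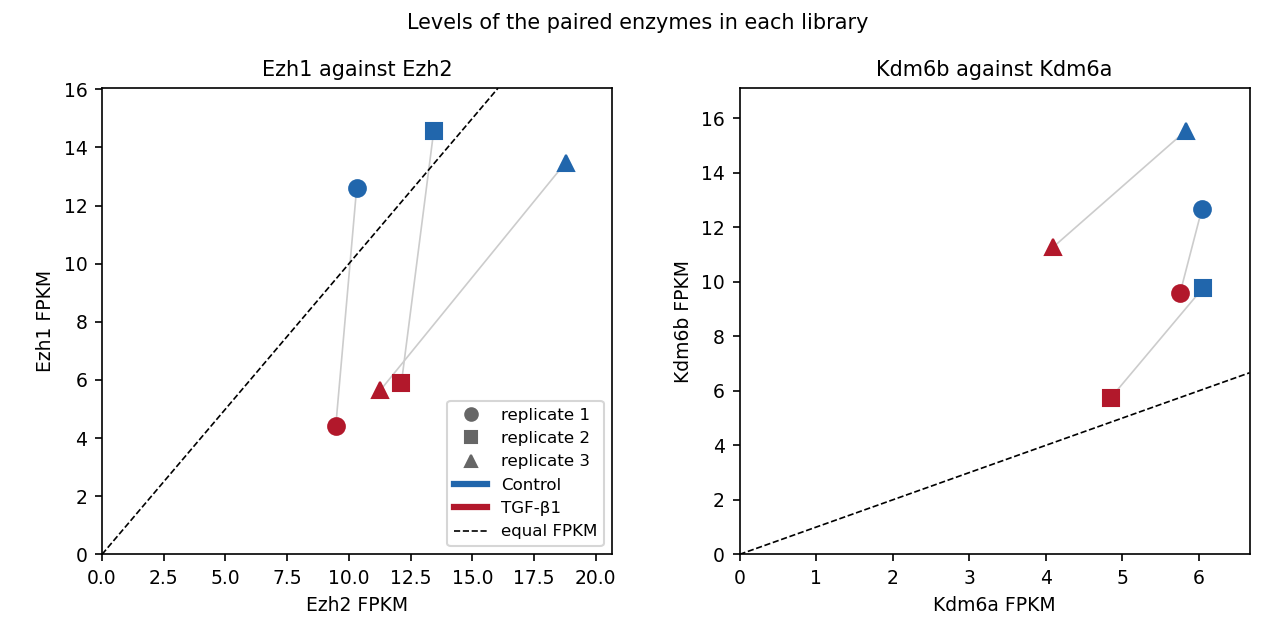
FPKM of Ezh1 against Ezh2 (left) and of Kdm6b against Kdm6a (right) in each library, with Control in blue and TGF-β1 in red. Grey lines join libraries of the same replicate number and the dashed line marks equal levels. TGF-β1 libraries lay well below the line for Ezh1 against Ezh2, at ratios from 0.465 to 0.501, while the Kdm6b to Kdm6a ratios of the groups overlapped.

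The promoters of the catalytic pair differ in sequence, and the 100 bases before each RefSeq start are shown because these enzymes parted in level. They were taken from the RefSeq promoter table (GRCm38.p6) and found once each on mm9, at chr11:101087778-101087877 for Ezh1 and at chr6:47545030-47545129 for Ezh2, both on the minus strand and written in the direction of transcription. Capitals mark the letters CCAAT or their complement ATTGG, the box bound by the factor NF-Y.
Ezh1: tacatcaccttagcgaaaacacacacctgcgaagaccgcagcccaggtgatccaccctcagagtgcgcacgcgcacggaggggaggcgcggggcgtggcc
Ezh2: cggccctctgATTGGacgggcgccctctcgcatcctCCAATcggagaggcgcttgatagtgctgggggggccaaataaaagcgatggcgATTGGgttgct
Ezh2 held 3 such boxes and Ezh1 none, in these bases and in the whole window from 250 bases before to 50 after the start. A CCAAT box on either strand was found in 6 of the 9 genes with a promoter in the table and in 37.4% of all its 32851 promoters. The 9 genes have 11 windows and count with a match in any of them, while the background is per window. The numbers are therefore not like for like, and this holds for the E2F motif too. Just after its start Ezh2 also carried an E2F motif, searched as TTTCCCGC, TTTCGCGC, TTTGCCGC or TTTGGCGC on both strands and present in 2.26% of promoters. A match describes letters, not binding.

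The E2F motif, the site of the transcription factors that drive S phase genes, was found in 3 of the 9 genes with a promoter in the table, namely Ezh2, Suz12 and Phf19. A 30-base window around each is shown because few promoters hold the motif and these 3 do. In capitals is the motif, which begins at base 4 of the Ezh2 transcript (mm9 chr6:47545008-47545037), at −219 in Suz12 (chr11:79806378-79806407) and at −208 in Phf19 (chr2:34769686-34769715).
Ezh2: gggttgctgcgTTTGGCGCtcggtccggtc
Suz12: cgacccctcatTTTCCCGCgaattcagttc
Phf19: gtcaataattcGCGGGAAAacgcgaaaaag
The palindrome GTCTAGAC, a SMAD-binding sequence, was in none of these 9 genes' windows and in 0.213% of all promoters.

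Of the 14 tested cell cycle genes, which are named here because Ezh2 is known to follow proliferation, 2 rose, 2 fell and 10 did not pass the test, a called share of 28.6% beside 48.1% of all tested rows, with a median log2 change of −0.02. Tyms, the thymidylate synthase, rose by 0.81 and Mcm5, a subunit of the replicative helicase, changed by −0.70. Without Control replicate 3, the library where Ezh2 was highest, 7 of the 14 were called, beside 45.8% of all tested rows in that fit. Under the level filter lay Mki67, the proliferation antigen, with means of 1.05 and 0.514 FPKM (log2 change −0.43, adjusted p = 0.0231 without the filter), and E2f2 with 0.221 and 0.0938 FPKM (−0.16, adjusted p = 0.0446).

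The 3 core subunits Eed, Rbbp7 and Suz12 were all higher in each TGF-β1 library than in any Control library. EED reads the methyl mark and stimulates the enzyme. Eed (ENSMUSG00000030619, mm9 chr7:97103166-97129493, minus strand) measured 15.8, 11.9 and 11.4 FPKM in Control and 18.8, 20.1 and 20.1 FPKM with TGF-β1. Control replicate 1 came nearest to the treated libraries, which were tightly grouped. Its mean rose from 13.0 ± 2.41 to 19.6 ± 0.766 FPKM (SD, n = 3 each), a ratio of 1.51 and a log2 change of 0.57 (SE 0.13, 95% interval 0.26 to 0.89, adjusted p = 0.0125). This call held without any one library (adjusted p from 0.00320 to 0.0464) and with the replicate block, but not in replicates 1 and 3 alone (adjusted p = 0.101). Eed overlaps no annotated gene.

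RBBP7 is a histone-binding WD40 protein that PRC2 shares with other chromatin complexes, so its RNA is not a measure of PRC2 alone. Rbbp7 (ENSMUSG00000031353, mm9 chrX:159198334-159217024, plus strand) was at 97.7, 84.2 and 104 FPKM in Control and at 126, 122 and 121 FPKM with TGF-β1. The treated libraries lay above all controls and spanned a narrower range. It rose from 95.4 ± 10.2 to 123 ± 2.46 FPKM (SD, n = 3 each), a log2 change of 0.37 (SE 0.10, 95% interval 0.13 to 0.60, adjusted p = 0.0213). The protein-coding gene Txlng overlaps it on the opposite strand. Leaving out TGF-β1 replicate 1 (adjusted p = 0.0748) or TGF-β1 replicate 3 (0.0570) ended the call.

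SUZ12 is the scaffold on which the complex is built. Suz12 (ENSMUSG00000017548, mm9 chr11:79806608-79847625, plus strand) had 8.18, 6.11 and 6.19 FPKM in Control and 8.91, 9.42 and 9.15 FPKM with TGF-β1. Control replicate 1 stood apart from the other two and close to the treated libraries, and the groups did not overlap. The mean went from 6.83 ± 1.17 to 9.16 ± 0.253 FPKM (SD, n = 3 each), with a log2 change of 0.39 (SE 0.12, 95% interval 0.09 to 0.68, adjusted p = 0.0386). The call was lost with the replicate block (adjusted p = 0.0631) and when any library other than Control replicate 1 was left out, with adjusted p from 0.0910 to 0.115. Without Control replicate 1 it held at 0.00936. A noncoding RNA, Gm16706, overlaps Suz12 on the opposite strand.

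The calls of Suz12 and Rbbp7 depended on which scaling was used. With median scaling all 3 genes were still called, Suz12 at a log2 change of 0.38 (adjusted p = 0.0414), Rbbp7 at 0.36 (0.0232) and Eed at 0.56 (0.0134). The sums of protein-coding rows differed by group, at −0.14 to −0.05 around their mean on the log2 scale in Control and 0.08 to 0.11 with TGF-β1. Scaling each library to the sum of its protein-coding rows lowered the median log2 change of all rows to −0.19 and turned the 2911 higher and 2810 lower calls into 2015 higher and 3927 lower. On that scale Eed was still called (log2 change 0.39, adjusted p = 0.0334), whereas Suz12 (0.21, adjusted p = 0.155) and Rbbp7 (0.18, adjusted p = 0.188) were not. Removing a trend with GC content and length gave the same calls for these 3 genes, with adjusted p of 0.0107 for Eed, 0.143 for Suz12 and 0.0733 for Rbbp7. That trend itself differed between the groups, at −0.10 to −0.06 for Suz12 in Control and 0.05 to 0.15 with TGF-β1. For Rbbp7 it was −0.08 to −0.03 and 0.03 to 0.11, and for Eed −0.05 to −0.02 and 0.01 to 0.08. Its removal thus takes out a shift aligned with treatment, and whether that shift is technical was not tested.

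The promoters of the core subunits are shown since each was called higher with TGF-β1. Only Eed kept its call both when scaled to protein-coding rows and with the trend above removed. Shared regulation was not tested. Each is given as the 100 bases before the RefSeq start in the direction of transcription, with CCAAT or ATTGG in capitals. On mm9 they lie at chr11:79806508-79806607 on the plus strand for Suz12, chr7:97129487-97129586 on the minus strand for Eed and chrX:159198204-159198303 on the plus strand for Rbbp7.
Suz12: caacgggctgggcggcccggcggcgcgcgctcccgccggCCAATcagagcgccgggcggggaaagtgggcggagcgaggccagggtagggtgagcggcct
Eed: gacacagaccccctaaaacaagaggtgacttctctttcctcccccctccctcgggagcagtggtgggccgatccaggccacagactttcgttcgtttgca
Rbbp7: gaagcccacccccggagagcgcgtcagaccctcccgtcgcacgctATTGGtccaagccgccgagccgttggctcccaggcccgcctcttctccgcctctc
Suz12 and Rbbp7 each hold a CCAAT box in this stretch and Eed does not, although Eed has one at base 26 of its transcript and Rbbp7 a further one that begins at −1. Over the 300-base windows the GC content was 71.0% in Suz12, 75.7% in Rbbp7 and 54.7% in Eed, with 41, 38 and 17 CpG sites, beside 59.3% and 23 sites in Ezh1 and 64.3% and 31 sites in Ezh2.

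**Figure D3:**
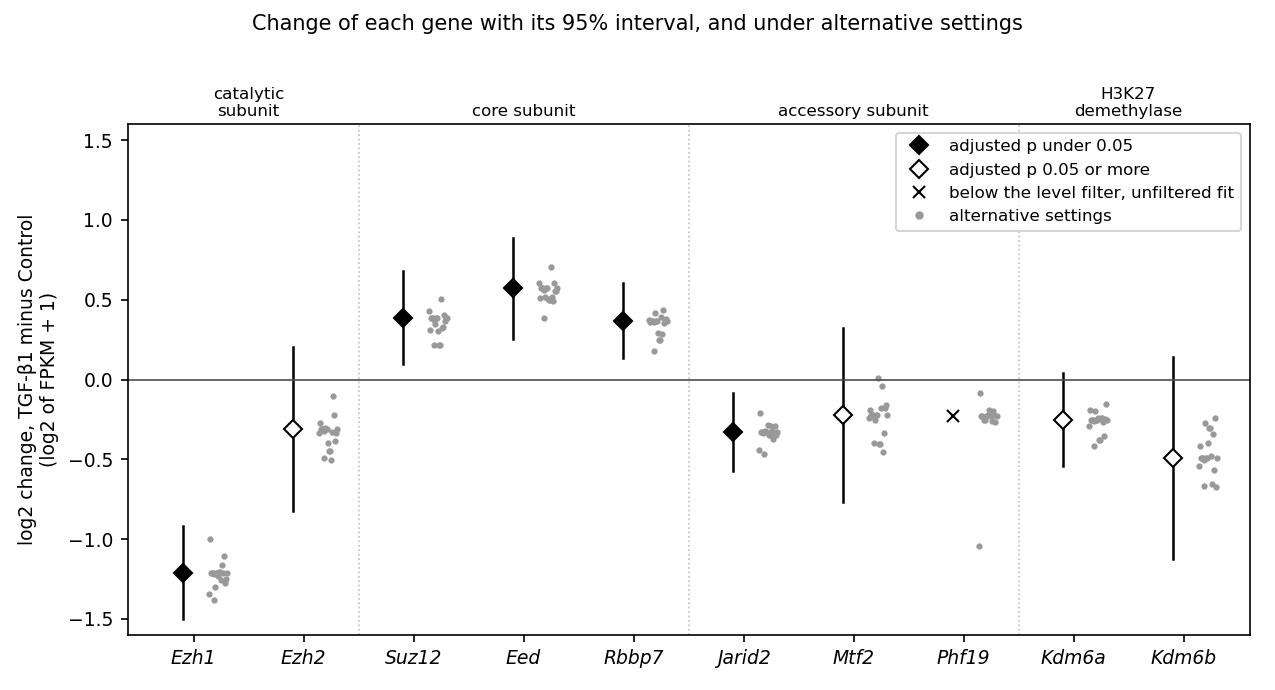
Log2 change of each gene, TGF-β1 minus Control (vertical axis), as diamonds with the 95% interval, filled where the adjusted p was under 0.05. The cross is Phf19 from the fit without the level filter, and grey dots are the alternative settings apart from scaling to the sum of all rows. The interval of Ezh1 ended at −0.92, those of the 3 core subunits lay above 0, and those of Ezh2, Mtf2, Kdm6a and Kdm6b crossed 0.

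The accessory subunits gave weaker evidence. JARID2 recruits PRC2 to its targets in stem cells. Jarid2 (ENSMUSG00000038518, mm9 chr13:44824843-45017012, plus strand) had 3.14, 2.97 and 2.71 FPKM in Control and 2.20, 1.98 and 2.23 FPKM with TGF-β1. The treated libraries were all lower, without overlap. Means were 2.94 ± 0.216 and 2.14 ± 0.134 FPKM (SD, n = 3 each), and the log2 change was −0.33 (SE 0.10, 95% interval −0.58 to −0.08, adjusted p = 0.0380). The call was lost with the replicate block (adjusted p = 0.0855) and without any library other than Control replicate 3 (adjusted p from 0.0687 to 0.0882). The row names a 428-nt processed transcript at the 5′ end of the gene, while the longest coding transcript has 5997 nt. If the 428 nt were the length behind the value, it would rest on 5 to 8 fragments per library. Among low genes with several transcripts, 50.3% of values were whole multiples of 1 fragment at the length of the named transcript, against 99.7% for genes with 1 transcript and 20% by chance at the tolerance used, so which length applies to Jarid2 is not known.

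MTF2 is a Polycomb-like subunit that binds CpG-rich DNA. Mtf2 (ENSMUSG00000029267, mm9 chr5:108494693-108538023, plus strand) had 10.6, 13.0 and 6.88 FPKM in Control and 9.82, 7.70 and 7.51 FPKM with TGF-β1. The groups overlapped, since Control replicate 3 was the lowest of all 6 libraries. The log2 change was −0.22, with a 95% interval from −0.77 to 0.32 (adjusted p = 0.444). Its row names a processed transcript of 2355 nt, and the coding gene Tmed5 overlaps it on the opposite strand.

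PHF19, another Polycomb-like subunit, was barely expressed. Phf19 (ENSMUSG00000026873, mm9 chr2:34749277-34769546, minus strand) had 0.326, 0.261 and 0.210 FPKM in Control and 0.0328, 0.0711 and 0.138 FPKM with TGF-β1. All treated values were below all control values. At the length of the named transcript these are 8 to 13 fragments per Control library and 1 to 5 per TGF-β1 library, so counting error alone is large. It lay under the level filter and was therefore not among the 9 genes tested. In the fit without the filter, where 30.5% of 19730 rows were called, its log2 change was −0.23 (adjusted p = 0.0341), and with the replicate block that call was lost (adjusted p = 0.102). Leaving out single libraries also ended it in 4 of 6 cases, those without Control replicate 1 or 2 or TGF-β1 replicate 1 or 2, with adjusted p up to 0.0905.

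The H3K27 demethylases were not called. KDM6A (UTX), encoded on the X chromosome, is part of the MLL3/4 complexes that methylate H3K4 at enhancers. Kdm6a (ENSMUSG00000037369, mm9 chrX:17739701-17857062, plus strand) had 6.04, 6.06 and 5.83 FPKM in Control and 5.76, 4.85 and 4.10 FPKM with TGF-β1. Control values were nearly equal and all treated values were lower, TGF-β1 replicate 1 by little. Means were 5.98 ± 0.125 and 4.90 ± 0.830 FPKM (SD, n = 3 each), with a log2 change of −0.25 (95% interval −0.54 to 0.04, adjusted p = 0.134). It was called lower when libraries were scaled to the sum of protein-coding rows (log2 change −0.42, adjusted p = 0.0275) and with the GC and length trend removed (−0.38, adjusted p = 0.0325). No annotated gene overlaps Kdm6a.

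KDM6B (JMJD3) is the inducible demethylase. Kdm6b (ENSMUSG00000018476, mm9 chr11:69212010-69227177, minus strand) had 12.7, 9.78 and 15.6 FPKM in Control and 9.61, 5.73 and 11.3 FPKM with TGF-β1. The groups overlapped, replicate 2 was lowest and replicate 3 highest in both, and each treated library was below the control of its number. The log2 change was −0.49 (95% interval −1.12 to 0.14, adjusted p = 0.167). With the replicate block it was called lower (adjusted p = 0.0202), as it was with replicate 2 as a batch term (0.0236). The GC content of its transcript, 59.6%, was the highest of the set. In TGF-β1 replicate 2 the deviations of rows from the group mean fell with GC content (Spearman's rho −0.389 over 10791 rows, a description). A separate trend with GC content and length was fitted in every library to deviations from the mean of all 6 libraries. At Kdm6b it was −0.35 on the log2 scale in TGF-β1 replicate 2. With this second trend removed from all libraries, the log2 change was −0.30 (adjusted p = 0.160), or adjusted p = 0.0306 with the replicate block. Its removal also takes out differences between the groups that follow GC content or length. The noncoding 1700064E03Rik overlaps Kdm6b on the opposite strand.

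Control libraries had Kdm6b to Kdm6a FPKM ratios of 2.10, 1.61 and 2.67, and TGF-β1 libraries had ratios of 1.67, 1.18 and 2.75. The groups overlapped, and TGF-β1 replicate 3 had the highest ratio of all. The log2 ratio differed by −0.24 (exact two-sided permutation test, p = 0.7, and 0.7 after adjustment over 2 ratios). Leaving out TGF-β1 replicate 2 turned this to 0.04, so the ratio had no stable direction.

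Other genes of PRC2 and of H3K27 demethylation were read from the same fit, and of 7 tested, 2 rose and 2 fell, beside the background of 48.1% called. Phf1, the third Polycomb-like subunit, had 23.0, 22.2 and 23.7 FPKM in Control and 8.99, 8.06 and 11.0 FPKM with TGF-β1. Its fall (log2 change −1.22, adjusted p = 0.000401) was close in size to that of Ezh1. Aebp2, the accessory subunit that binds SUZ12 in the form of PRC2 without Polycomb-like proteins, had 18.3, 21.5 and 23.1 FPKM in Control and 38.0, 42.1 and 41.9 FPKM with TGF-β1. It rose (log2 change 0.93, adjusted p = 0.000774), so that Phf1 was above Aebp2 in each Control library and below it in each TGF-β1 library. Rbbp4, the close relative of Rbbp7, was lower in all treated libraries (117 to 127 FPKM against 134 to 160 FPKM) and did not pass the test (log2 change −0.25, adjusted p = 0.0722). Neither did Epop (0.38, adjusted p = 0.0527). Lcor stayed under 0.5 FPKM.

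Among relatives of the demethylases, Uty, the Y-linked relative of Kdm6a with little catalytic activity, rose (log2 change 0.47, adjusted p = 0.0451). Kdm7a, an H3K9 and H3K27 demethylase listed as Jhdm1d, fell from 3.27, 3.82 and 3.17 FPKM to 1.69, 1.78 and 1.67 FPKM (log2 change −0.70, adjusted p = 0.00249). Phf8 did not pass (0.17, adjusted p = 0.379).

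PRC1, the companion complex that ubiquitinates histone H2A (at the residue H2AK119) and reads H3K27me3 through CBX proteins, had 24 tested genes, of which 4 rose, 8 fell and 12 did not pass. That 12 of 24 were called is at the background of 48.1%. Their median log2 change was −0.14. The reader Cbx7 fell from 2.88, 2.58 and 2.98 FPKM to 0.583, 0.415 and 0.719 FPKM (log2 change −1.28, adjusted p = 0.000457). Of the E3 ligases, Ring1 fell (−0.63, adjusted p = 0.00251) and Rnf2 rose (0.36, adjusted p = 0.0326, or 0.0612 with the replicate block). Pcgf3 rose (0.72) and Pcgf2 fell (−0.91) among the PCGF subunits, Phc2 rose (0.50) and Phc3 fell (−0.79) among the Polyhomeotic and SCM group, and Yaf2 rose (0.62) and Auts2 fell (−0.72) among subunits of variant PRC1. Kdm2b, the CpG-binding subunit, was called lower (−0.38, adjusted p = 0.0424) but not with the block (0.0529). Genes were called in both directions in 4 of the 5 roles.

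**Figure D4:**
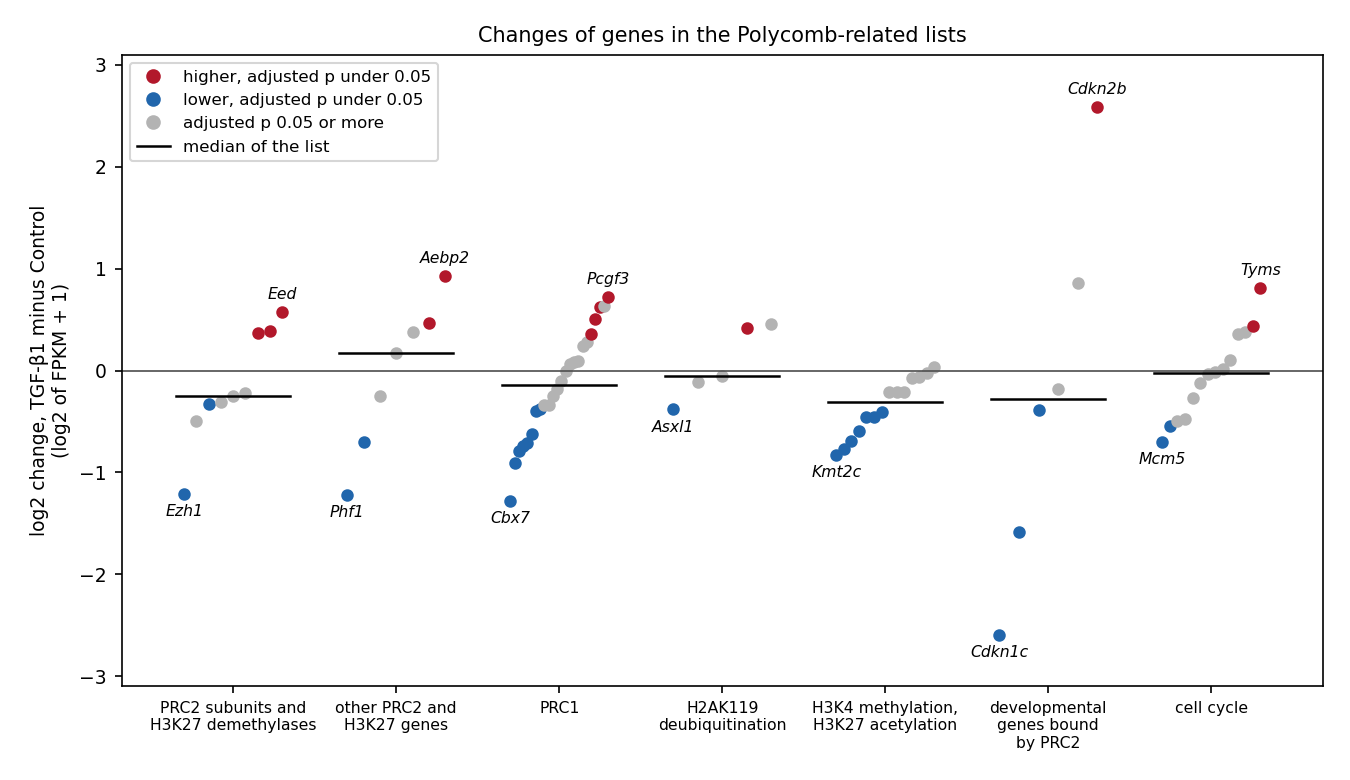
Log2 change, TGF-β1 minus Control (vertical axis), of every tested gene in 7 lists, sorted within each list, with genes called higher in red, called lower in blue and not called in grey. Black bars are list medians, and the called gene at either end of a list is named. Of the H3K4 methylation and H3K27 acetylation genes, 7 were called lower and none higher, beside 23.6% and 24.5% of all tested rows, while the other lists had calls in both directions.

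Among genes of H2AK119 deubiquitination, Foxk1 rose (0.42, adjusted p = 0.0162) and Asxl1, the partner of the deubiquitinase BAP1, fell (−0.38, adjusted p = 0.0318), with 3 others not called, a share of 40.0% beside 48.1% of all tested rows. Neither gene was called without Control replicate 2, and 1 of them without Control replicate 1, TGF-β1 replicate 1 or TGF-β1 replicate 3. The list for H3K4 methylation and H3K27 acetylation, marks that oppose PRC2, holds MLL family genes, other subunits of MLL complexes and acetyltransferases. Not all of them write a mark themselves. Of its 14 genes, 7 fell and 0 rose in limma, with 0 higher at an unadjusted p under 0.05 as well. The subunits Wdr5, Ash2l, Rbbp5 and Dpy30 were among those not called. That 7 of 14 were called is near the 48.1% of all tested rows, of which 24.5% were called higher and 23.6% lower. Kmt2c (listed as Mll3), the MLL3 methyltransferase that works with KDM6A, fell from 11.4, 12.0 and 10.2 FPKM to 5.52, 6.50 and 5.60 FPKM (log2 change −0.83, adjusted p = 0.00105). The acetyltransferase Crebbp also fell (−0.69, adjusted p = 0.000999). Their median log2 change was −0.31, beside −0.02 for all tested rows. Without TGF-β1 replicate 1, 3 of the 14 were called, beside 37.1% of all tested rows, and without TGF-β1 replicate 2, 4 were, beside 43.4%.

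Developmental and cell cycle inhibitor genes that PRC2 is known to bind in stem cells went in both directions. Of 20 genes listed, 11 had a row, while Gata4, Hand1, Pax3, Olig2, Nkx2-2, Neurog1, Neurod1, Lhx2 and Tbx5 had none. Of 6 tested, 1 rose and 3 fell, a called share of 66.7% beside 48.1% of all tested rows (24.5% higher and 23.6% lower). A further 5 rows were under the level filter, so this share covers only the minority of the list with a mean of at least 1 FPKM. Cdkn2b, the inhibitor p15, rose from 42.8, 26.5 and 43.1 FPKM to 262, 177 and 244 FPKM (log2 change 2.59, adjusted p = 0.000322). Cdkn1c, the inhibitor p57, fell from 12.6, 13.5 and 13.0 FPKM to 1.51, 1.23 and 1.25 FPKM (log2 change −2.59, adjusted p = 1.25e-05). Cdkn2a, named above as a locus known to be held silent by PRC2, was not silent in these cells. It had 448, 112 and 346 FPKM in Control and 971, 110 and 979 FPKM with TGF-β1. The groups overlapped, with replicate 2 lowest in both, and it was not called (log2 change 0.86, adjusted p = 0.494). All genes of this list were chosen for their known binding elsewhere, and no binding was measured in these libraries.

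The profiles most like that of Ezh1 over the 6 libraries, by the root mean square difference of centred log2(FPKM + 1) values among 10790 protein-coding rows, were Arvcf (0.0456), 1700029J07Rik (0.0493) and Runx1t1 (0.0645). For Ezh2 they were Rg9mtd3 (0.0586), Map3k4 (0.0745) and Psg16 (0.0910). Like Ezh2, these 3 had their highest level in Control replicate 3 and were not called (adjusted p from 0.171 to 0.268). Both traits follow from picking them for likeness to Ezh2 over the same libraries and add no evidence.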

How the data were processed

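RNA-Seq of 3 Control and 3 TGF-β1 libraries was analysed. According to the study's methods, the authors filtered reads by quality, aligned them to the mm9 genome using TopHat, and obtained FPKM from Cufflinks. The submitters' processing notes name TopHat2 2.0.11, another release than the methods. The deposited values are FPKM per row, and no scaling between libraries or use of read strand is stated in the sources used here. Each of the 19730 rows pairs a transcript with a gene symbol. Groups and replicate numbers came from the labels.

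The table holds FPKM, so no count model was run. Rows with a mean of at least 1 FPKM (11898) were tested as log2(FPKM + 1) by a linear model (limma 3.58.1, R 4.3.3) with a mean-variance trend, two-sided and Benjamini-Hochberg adjusted. Phf19 was read from the same fit without that filter. Ratios of FPKM were compared with exact permutation tests (scipy 1.17.1). The script was tested on simulated data. Transcripts, GC content and mm9 positions came from GENCODE M1, and promoters from RefSeq (GRCm38.p6), where 9 of the 10 genes matched. Kdm6b did not.

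Depth was recovered from protein-coding genes with 1 transcript and values under 0.25 FPKM, which were within 0.1 of a whole number of fragments in at least 99.4% of cases at an assumed fragment length of 200 nt. Fragment numbers cover counting error only.

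Libraries with the same replicate number deviated together from their group means (correlations of 0.21, 0.418 and 0.152 across rows for numbers 1 to 3). Pairs of unlike numbers reached 0.201 (Control 1 with TGF-β1 3) and 0.127 (Control 3 with TGF-β1 1), so only replicate 2 stood apart. A fit with the replicate number as a block was run on the ground that each like-numbered pair exceeded 0.1. Both of these unlike pairs exceeded 0.1 as well, so that ground cannot establish pairs for numbers 1 and 3. Pseudocount, filter, threshold, scaling, weights, GC and length trend, replicate 2 as a batch and leaving out each library were also varied. The GC and length trend was fitted in each library to deviations from the mean of all 6 libraries. Removing it therefore also removes differences between the groups that follow GC content or length.

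The 10 genes and the gene lists were chosen with earlier results of these data known. Named genes are these 10, the called gene with the largest rise and fall in each role of the other lists, all other PRC2 subunits and H3K27 demethylase relatives, Ctgf, Col1a1 and the 3 profiles nearest to Ezh1 and to Ezh2. Markers, Kdm2b, Mki67, E2f2, Cdkn2a, Wdr5, Ash2l, Rbbp5, Dpy30 and the genes that overlap members were named outside this rule.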

Additional observations from a re-analysis of the deposited data

How the results depend on the processing

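The fall of Ezh1 was called in 20 of 21 alternative settings, and Eed in 18, Rbbp7 in 13 and Suz12 in 8 of 21, and Jarid2 in 9 of 20. With the replicate block 4 of the 9 tested genes were called and 5391 rows in all, and apart from the losses of Suz12, Jarid2 and the unfiltered Phf19 and the gain of Kdm6b it changed no other call among the 10 genes. Without replicate 2 of either group 1 of the 9 was called, as at an adjusted p under 0.01, where 3672 of all tested rows were. Leaving out 1 library gave 2 to 4 called of the 9 and 4419 to 5446 of all rows. Scaling to the sum of all rows, a sum set by rows of extreme value, moved the median log2 change of all rows to 1.42. It left 0 calls in limma for all rows (9 at an unadjusted p under 0.05) and 0 in every list. That scale is not a usable reference for direction. There the log2 changes turned to 0.20 for Ezh1, 1.15 for Ezh2, 0.93 for Jarid2, 1.21 for Mtf2, 1.17 for Kdm6a and 0.95 for Kdm6b, each below that median. Mtf2 was at 0.0070 in replicates 1 and 3 alone. The Kdm6b to Kdm6a log2 difference was 0.0775 with the GC and length trend removed, 0.0407 without TGF-β1 replicate 2 and −0.57 to 0.04 over the left-out libraries, and that of Ezh1 to Ezh2 was −1.25 to −0.87.

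Other PRC2 genes had 2 calls at a filter of 3 FPKM and 3 to 6 with a library left out, PRC1 9 to 11, and the PRC2-bound genes 3 to 4. H2AK119 genes had 1 without a filter, scaled to protein-coding rows or in replicates 1 and 3, 0 at an adjusted p under 0.01, and 0 to 2 with a library left out. Genes of H3K4 methylation and H3K27 acetylation had 4 in replicates 1 and 3, 3 at an adjusted p under 0.01, and 3 to 5 with a library left out. Cell cycle genes had 3 to 7. Causes were not tested. Depth limits Phf19 and perhaps Jarid2, and no count of reads was used.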
